A study of Mus musculus with 33 samples.

Results

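The protocadherins are described here as all genes whose symbol begins with Pcdh in the deposited count table of mouse hippocampal neural stem cells, which gave 71 members of 26621 genes. Of these, 15 belong to the alpha cluster (Pcdha), 22 to the beta cluster (Pcdhb) and 22 to the gamma cluster (Pcdhg), and 12 are non-clustered (Pcdh1, Pcdh7, Pcdh8, Pcdh9, Pcdh10, Pcdh11x, Pcdh12, Pcdh15, Pcdh17, Pcdh18, Pcdh19 and Pcdh20). In the GRCm38.p6 RefSeq annotation 70 members were matched by symbol, all but Pcdha4-g, and 60 of them lie on chromosome 18. Every matched alpha span (14) and gamma span (22) overlaps the span of another member, whereas none of the 22 beta spans and none of the 12 non-clustered spans does. The beta genes span 2.34 to 5.27 kb each and the non-clustered genes 4.54 to 1554 kb, with Pcdh15 (chr10:73096277-74649831) the longest. The others that the results turn on are Pcdh9 (chr14:93013700-93892834), Pcdh10 (chr3:45378398-45434579), Pcdh11x (chrX:120290238-120910622), Pcdh17 (chr14:84443563-84537565), Pcdh18 (chr3:49743291-49757383) and Pcdh7 (chr5:57716145-58133236).

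Protocadherins are cell surface proteins of the cadherin superfamily that bind a matching protocadherin on the neighbouring cell. In the alpha and gamma clusters each variable first exon, with its own promoter, is spliced to constant exons that all members of the cluster share, whereas each beta gene is complete without them. Neurons in this way acquire different surface combinations. The non-clustered members, most of them of the delta group, have cytoplasmic tails that bind phosphatases or the WAVE actin regulator, and they act in the migration, sorting and wiring of neural cells. N6-methyladenosine (m6A) is a methyl mark on mRNA, and YTHDF2 is a cytoplasmic protein that binds it and is known to shorten the life of bound transcripts.

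The RNA-seq libraries (18, by SMART-seq2) came from neural stem cells of hippocampus at postnatal day 0.5, grown with bFGF and EGF and given 5 µM actinomycin D, which stops transcription, for 0, 2 or 4 h. Each hour has 3 replicates of genotype Nestin-WT and 3 of Nestin-cKO for Ythdf2. The m6A series has 3 m6A pull-downs and 3 inputs, and the YTHDF2 series has 3 YTHDF2 pull-downs, 3 IgG pull-downs and 3 inputs, all from WT cells without actinomycin D and prepared by a modified SMART-seq3 method. What drives the deletion, which part of Ythdf2 is deleted and how many animals stand behind the replicates is not given in the sources used here, so p-values measure the spread between these samples, which may be technical. Total counts per library ran from 10257329 to 21353383 in RNA-seq, from 12892222 to 28334300 in the m6A series and from 8419106 to 23097887 in the YTHDF2 series.

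Ythdf2 itself went against its label. It stood at 219, 253 and 258 normalized CPM (counts scaled to a common TMM-adjusted library total) in the WT libraries at 0 h and at 3117, 1035 and 736 in those labelled cKO. The log2 difference was 2.74 (SE 0.37, edgeR adjusted p = 0.00027), and every contrast below is therefore between libraries labelled cKO and WT. The libraries labelled cKO were also less alike among themselves, with Pearson r of 0.938 to 0.978 between log levels at 0 h against 0.99 to 0.993 in WT. Xist, transcribed from the inactive X chromosome, was at 145 CPM in WT replicate 1 and at 1.18 and 1.96 in the others, but at 1.57 in replicate 1 labelled cKO and at 77.1 and 58.4 in the others. The neural stem cell markers Nes and Sox2 were at 34.7 to 44.9 and 68.1 to 78.0 CPM in the WT libraries at 0 h. They were at 32.9 to 46.8 and 61.9 to 102 in those labelled cKO. Of the 14 tested markers of this list 4 were called lower and 1 higher (9.89% and 7.71% of all genes). Hes5 was at 5.69 to 8.69 CPM in WT and 0.318 to 0.828 in those labelled cKO, Prom1 at 36.5 to 58.9 and 5.63 to 7.80, and Vim at 589 to 667 and 1671 to 1802. In the YTHDF2 series the sample titles and descriptions name input and YTHDF2 the other way round, and the descriptions, which match the table columns, were used.

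Promoter sequences are shown for 4 members that were lower in the libraries labelled cKO at every hour and for the member that was higher at 0 h, with CG dinucleotides, the sites of DNA methylation, in capitals. Each runs 5′ to 3′ on the gene's strand from 250 bases before to 50 after a RefSeq start site (GRCm38.p6).
Pcdh15, chr10:73821617-73821916, plus strand: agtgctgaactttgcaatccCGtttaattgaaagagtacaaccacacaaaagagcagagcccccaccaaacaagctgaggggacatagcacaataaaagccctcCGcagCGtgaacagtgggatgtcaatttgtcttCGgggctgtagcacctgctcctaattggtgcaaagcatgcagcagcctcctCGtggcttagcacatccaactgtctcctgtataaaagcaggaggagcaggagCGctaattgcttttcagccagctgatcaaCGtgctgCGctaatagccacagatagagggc
Pcdh9, chr14:93890620-93890919, minus strand: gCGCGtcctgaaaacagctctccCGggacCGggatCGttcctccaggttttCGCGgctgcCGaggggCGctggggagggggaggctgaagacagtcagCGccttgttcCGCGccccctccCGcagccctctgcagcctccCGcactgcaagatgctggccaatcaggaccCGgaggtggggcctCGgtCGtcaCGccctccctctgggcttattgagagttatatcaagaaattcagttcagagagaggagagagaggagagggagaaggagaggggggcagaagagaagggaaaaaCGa
Pcdh10, chr3:45378148-45378447, plus strand: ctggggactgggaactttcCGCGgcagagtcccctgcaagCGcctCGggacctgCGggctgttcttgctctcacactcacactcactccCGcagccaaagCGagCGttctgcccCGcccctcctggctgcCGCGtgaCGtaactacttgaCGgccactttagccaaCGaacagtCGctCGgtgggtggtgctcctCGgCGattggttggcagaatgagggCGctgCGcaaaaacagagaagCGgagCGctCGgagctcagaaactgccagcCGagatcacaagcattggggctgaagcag
Pcdh17, chr14:84443313-84443612, plus strand: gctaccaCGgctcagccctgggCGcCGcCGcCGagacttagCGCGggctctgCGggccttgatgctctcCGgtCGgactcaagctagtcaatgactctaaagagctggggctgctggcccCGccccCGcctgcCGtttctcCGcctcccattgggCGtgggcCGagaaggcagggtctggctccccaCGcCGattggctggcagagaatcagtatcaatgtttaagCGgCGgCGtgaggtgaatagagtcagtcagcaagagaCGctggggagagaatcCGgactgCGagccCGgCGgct
Pcdh18, chr3:49757267-49757566, minus strand: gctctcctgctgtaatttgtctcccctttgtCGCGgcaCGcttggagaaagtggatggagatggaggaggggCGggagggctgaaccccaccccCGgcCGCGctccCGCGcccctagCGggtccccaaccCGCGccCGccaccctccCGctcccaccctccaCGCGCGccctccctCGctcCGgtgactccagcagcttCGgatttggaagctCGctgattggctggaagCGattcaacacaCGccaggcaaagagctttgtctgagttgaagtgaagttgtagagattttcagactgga

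The Pcdh15 promoter holds 8 CG, a number exceeding that of 51.4% of the 32851 promoters of the same 300 bases in the table, whose median is 7 and of which 94.6% hold at least 1. Pcdh17 holds 26 CG, Pcdh10 24, Pcdh18 23 and Pcdh9 19, more than 83.1%, 80.0%, 78.5% and 71.9% of all promoters. Of the 5, only the Pcdh15 promoter holds the letters TATAAA on either strand, as do 13.6% of all promoters. The Pcdh15, Pcdh9 and Pcdh18 starts shown lie inside the spans of their genes, the Pcdh9 start is 1 of 2 in the table, and these counts describe letters only.

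Among protocadherin transcripts, Pcdh9 was the most abundant per unit of length in WT cells at 0 h, at 162 ± 12.5 TPM (SD, n = 3), which was 61.1% of the summed TPM of the non-clustered members. Next came Pcdh11x, the X-linked member, at 31.4 ± 7.31 TPM, Pcdhb20 at 22.2 ± 3.25, Pcdh15 at 20.0 ± 0.923, Pcdh10 at 19.7 ± 1.141, Pcdh7 at 14.4 ± 0.874 and Pcdh17 at 12.1 ± 1.21. Neighbours in this order from Pcdhb20 to Pcdh10 lie within their SD of each other. Pcdhb20 made up 27.6% of the summed TPM of the beta cluster, followed by Pcdhb9 at 9.97 and Pcdhb17 at 9.57 TPM. The alpha and gamma clusters were at low levels in these RNA-seq libraries. The leading alpha member, the C-type Pcdhac2, stood at 1.53 ± 0.438 TPM, and the leading gamma members, the C-type Pcdhgc4 and Pcdhgc3, at 1.82 and 1.79 TPM. In all, 17 members had fewer than 10 counts in each of the 18 RNA-seq libraries. Pcdha4 and Pcdha4-g were at 0 in all of them, and Pcdh12, known from endothelial cells, was at 0 or 1 count in each.

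Summed over each cluster, the levels differed between the separately normalized tables, which are set side by side here without a test. The gamma sum was 19.5, 15.9 and 17.5 CPM in the WT RNA-seq libraries at 0 h, 718.5, 734.9 and 770.5 in the m6A inputs and 568.1, 645.1 and 494.5 in the YTHDF2 inputs. Pcdhgc3 alone, at 4.13 ± 1.09 CPM in RNA-seq, was at 471 ± 23.9 in the m6A inputs and 375 ± 63.2 in the YTHDF2 inputs, where it made up 63.5% and 66.0% of the gamma TPM. Its mean level was 194 ± 9.54 TPM in the m6A inputs and 144 ± 34.4 in the YTHDF2 inputs. Pcdh9 was at 176 ± 23.6 and 140 ± 3.94 TPM there, within these SD, and so did not lead as it did in RNA-seq. The beta sum was 151.6, 137.3 and 119 CPM in the WT libraries at 0 h, 401.6, 372.7 and 381.9 in the m6A inputs and 259, 184 and 177 in the YTHDF2 inputs. The non-clustered sum was 911.3, 952.9 and 912.8 in RNA-seq, 859.6, 1002 and 868.3 in the m6A inputs and 633, 651 and 731 in the YTHDF2 inputs, where Pcdh11x was at 19.8 ± 2.36 CPM against 69.2 ± 14.5 in RNA-seq. How reads in the constant exons were assigned among the overlapping gamma members is not given in the sources used here, and the library method differs between these tables. Values of single alpha and gamma genes are uncertain. Within the beta cluster the order of levels was similar in the m6A inputs and in RNA-seq (Spearman rho 0.853 between WT at 0 h and the m6A input, 22 genes, as a description). The order in the YTHDF2 inputs was not compared. Single beta genes differed more: Pcdhb14 was at 3.51 TPM in WT RNA-seq at 0 h and 22.1 in the m6A inputs, and Pcdhb20 at 22.2 and 27.1.

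**Figure D1:**
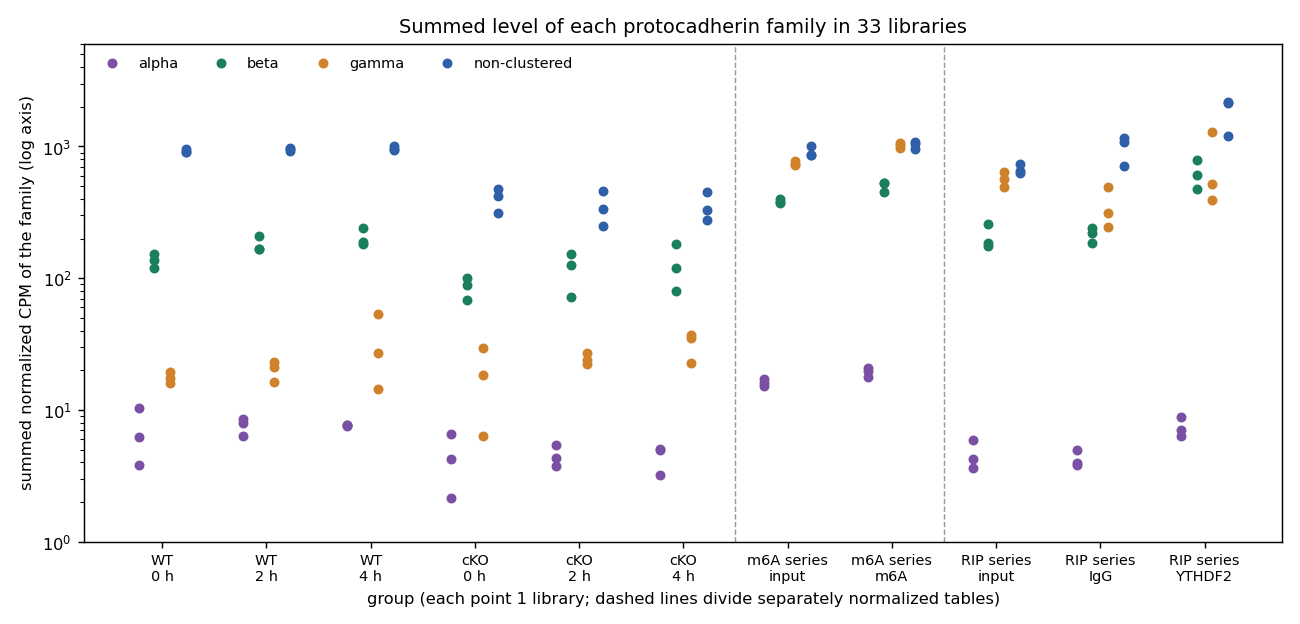
Summed normalized CPM (log axis) of the alpha, beta, gamma and non-clustered protocadherins in each of the 33 libraries, by group; each point is 1 library and dashed lines divide the 3 separately normalized tables. The non-clustered sum is 911.3 to 952.9 CPM in WT at 0 h and 310.3 to 472.6 in the libraries labelled cKO, and the gamma sum is 15.9 to 19.5 in WT RNA-seq at 0 h and 718.5 to 770.5 in the m6A inputs.

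Several non-clustered protocadherins were lower in the libraries labelled cKO. The low-count filter of RNA-seq passed 48 members (3 alpha, 21 beta, 13 gamma and 11 non-clustered). Of these, 7 were called lower and 1 higher at 0 h at an edgeR adjusted p under 0.05. Over all 14029 genes tested 9.89% were called lower and 7.71% higher. In 14 members all libraries labelled cKO were below all WT libraries and in 1 above, against 24% and 17.3% of all genes. The median log2 difference of the 48 was -0.47, against -0.01 over all genes, and it moved to -0.14 without WT replicate 1 and to -0.74 without replicate 3 labelled cKO. Among the 11 non-clustered members 5 were lower (Pcdh15, Pcdh11x, Pcdh10, Pcdh9 and Pcdh17) and 1 was higher (Pcdh18), and among the 21 beta members 2 were lower (Pcdhb9 and Pcdhb10). The 3 alpha and 13 gamma members gave no call.

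Pcdh15, which with cadherin 23 forms the tip link of inner ear hair cells and is also transcribed in oligodendrocyte precursors, showed the largest difference of any member at each hour. Over the 9 WT libraries of all hours its level ran from 130 to 186 CPM, and over the 9 labelled cKO from 5.35 to 16.8, with no overlap. After 2 and 4 h the log2 differences were -4.26 (SE 0.38, adjusted p = 4.26e-06) and -4.12 (SE 0.38, adjusted p = 5.6e-06), close to the -3.93 at 0 h. At every hour the difference kept its call without each single library, as did those of Pcdh11x and Pcdh17. In bulk RNA, fewer cells of a type and less RNA per cell cannot be told apart.

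Pcdh11x, a delta protocadherin encoded on the X chromosome, was at 86.0, 60.5 and 61.2 CPM in the WT libraries at 0 h and at 8.03, 6.16 and 12.7 in those labelled cKO. At 2 h it was at 104.7, 81.2 and 74.3 against 20.8, 8.75 and 5.42, and at 4 h at 93.2, 77.5 and 78.9 against 21.6, 8.13 and 5.11. The groups did not overlap at any hour, and the part of the uneven Xist levels in this difference was not tested. The log2 differences were -2.95 (SE 0.49), -2.88 (SE 0.49) and -2.84 (SE 0.49), with edgeR adjusted p of 0.00135, 0.00142 and 0.00118. Pcdh19, also X-linked and known for an epilepsy of heterozygous females, was not called: its log2 differences were 0.13, -0.01 and 0.27, with adjusted p of 0.74, 0.992 and 0.458.

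Pcdh9, the most abundant member in the WT RNA-seq libraries, was at 423, 477 and 426 CPM in WT at 0 h. It was at 132, 218 and 304 in the libraries labelled cKO. At 4 h it was at 411, 428 and 424 in WT and at 260, 139 and 142 in those labelled cKO. The groups stayed apart while the order of the replicates labelled cKO changed. The log2 differences were -1.02 (SE 0.31, adjusted p = 0.0338), -1.25 (SE 0.31, adjusted p = 0.0143) and -1.23 (SE 0.31, adjusted p = 0.0131) at 0, 2 and 4 h. At 0 h the call was lost without any 1 library of the 6 other than replicate 3 labelled cKO (adjusted p 0.0749 to 0.0923).

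Pcdh10 and Pcdh17, delta protocadherins whose tails recruit the WAVE complex to cell contacts, were also lower. Pcdh10 was at 105, 119 and 122 CPM in WT at 0 h and at 73.0, 57.4 and 39.2 in the libraries labelled cKO (log2 -1.03, SE 0.26, adjusted p = 0.016). Its differences at 2 and 4 h were -1.22 and -1.25. Pcdh17 was at 59.3, 58.9 and 51.8 against 30.2, 33.1 and 31.8 (log2 -0.84, SE 0.19, adjusted p = 0.00975). With time in actinomycin D the gap of Pcdh17 reached -1.27 at 2 h and -1.24 at 4 h (adjusted p 0.000669 and 0.000658). The genotype difference of its slope was -0.10 log2 per hour (SE 0.07, adjusted p = 0.778). Pcdh10 at 0 h lost its call without replicate 3 of either genotype (adjusted p 0.0579 and 0.0632).

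Pcdh18, a delta protocadherin that binds the reelin adaptor Dab1, was the only member called higher at 0 h. It was at 2.29, 1.35 and 2.08 CPM in WT and at 4.55, 16.0 and 11.3 in the libraries labelled cKO, without overlap (log2 2.47, SE 0.68, adjusted p = 0.0218). By 4 h the groups overlapped, at 0.38, 2.39 and 1.68 against 1.37, 1.54 and 3.06 CPM (log2 0.46, adjusted p = 0.664). The call at 0 h was lost without replicate 2 labelled cKO or any WT library (adjusted p 0.0649 to 0.0784). Dab1 itself was lower, by a log2 difference of -2.08 (SE 0.49, adjusted p = 0.0106).

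Of the remaining non-clustered members, Pcdh7, a delta protocadherin that binds protein phosphatase 1, was at 60.1, 68.7 and 65.0 CPM in WT and at 38.8, 54.4 and 49.3 in the libraries labelled cKO at 0 h. The groups did not overlap, and the log2 differences of -0.44, -0.59 and -0.57 had adjusted p of 0.105, 0.0399 and 0.0431 at 0, 2 and 4 h. The call at 2 h was lost without any 1 of the 6 libraries (adjusted p 0.0573 to 0.137), and at 4 h without any 1 but WT replicate 1 (adjusted p 0.0674 to 0.149). Pcdh1 was at 2.09, 2.11 and 2.13 CPM in WT at 0 h and at 1.57, 1.73 and 1.04 in those labelled cKO (log2 -0.54, adjusted p = 0.453). At 4 h it was at 0.19, 0.19 and 0.32 against 0.52, 1.15 and 1.62 (log2 2.168, SE 0.60, adjusted p = 0.0176). Its call at 4 h rests on under 1 CPM in each WT library and was lost without WT replicate 1 or 2 or replicate 3 labelled cKO (adjusted p 0.0625 to 0.0898). Pcdh20, at 2.43 against 0.968 CPM on average, and Pcdh8, the activity-induced arcadlin, at under 1 CPM, had log2 differences of -1.32 and -1.04 with adjusted p of 0.243 and 0.507.

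**Figure D2:**
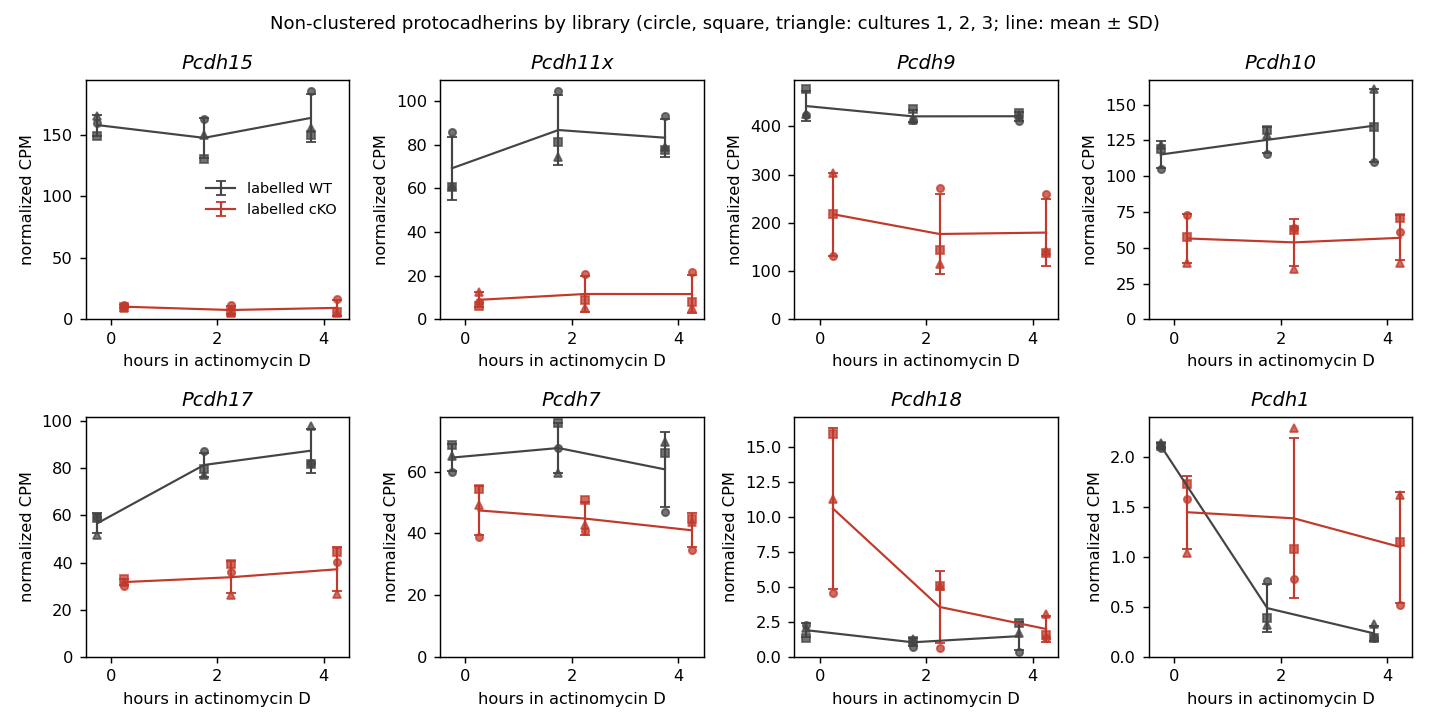
Normalized CPM of 8 non-clustered protocadherins against hours in actinomycin D, for libraries labelled WT (grey) and cKO (red); circles, squares and triangles are replicates 1, 2 and 3 and the lines join means with SD bars. Pcdh15 lies between 130 and 186 CPM in all WT libraries and between 5.35 and 16.8 in all libraries labelled cKO, and the Pcdh18 groups are apart at 0 h and overlap at 4 h.

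Few of the clustered genes were called between genotypes. Pcdhb9 was at 13.1, 18.8 and 13.3 CPM in WT at 0 h and at 5.22, 6.76 and 11.2 in the libraries labelled cKO (log2 -0.96, SE 0.31, adjusted p = 0.0393). Pcdhb10 was at 5.53, 7.25 and 5.16 against 0.41, 2.10 and 2.39 (log2 -1.86, SE 0.52, adjusted p = 0.0228). Neither pair of groups overlapped. Pcdhb9 lost its call without any 1 library except replicate 3 labelled cKO (adjusted p 0.0693 to 0.142), and Pcdhb10 without any WT library (adjusted p 0.0517 to 0.0702). Pcdhb20, the most abundant beta gene, was at 41.7, 37.2 and 32.8 against 13.9, 20.5 and 19.0 CPM, again without overlap, with a log2 difference of -1.07 and an adjusted p of 0.0677. Of the 21 tested beta genes 17 had a negative difference (median -0.47, and -0.27 without WT replicate 1). Of the 13 gamma genes 5 did (median 0.17), and without 1 library the gamma median ran from -0.90 (replicate 3 labelled cKO) to 0.70 (replicate 1 labelled cKO). The leading alpha and gamma members were not called: Pcdhac2 had a log2 difference of -0.25 and Pcdhgc4 of -0.97 (adjusted p = 0.195).

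With actinomycin D the same members stayed low. At 2 h 9 members were called lower and 0 higher (8.54% and 8.52% of all genes), and at 4 h 10 lower and 1 higher (9.11% and 11%). Groups did not overlap for 16 members lower and 3 higher at 2 h (20.9% and 20.4% of all genes) and for 12 and 2 at 4 h (18.2% and 19.9%). The 7 members called lower at 0 h were called lower at each later hour: Pcdh9, Pcdh10, Pcdh11x, Pcdh15, Pcdh17, Pcdhb9 and Pcdhb10. Pcdh7 and Pcdhb11 joined them at 2 h, the latter with a log2 difference of -1.502, and Pcdhb18 at 4 h with -0.97 (adjusted p = 0.0403). Pcdh10, Pcdh11x, Pcdh15 and Pcdh17 kept their calls at 2 and 4 h without each single library, and the other calls at these hours were each lost without 2 to 6 of the libraries in turn (adjusted p 0.053 to 0.229). The 7 members, and Pcdhb6 without a call, had a lower level in each of the 9 libraries labelled cKO than in any of the 9 WT libraries, and 0 members had a higher level in this way. Over all 14029 genes tested 3.74% were separated downward and 2.13% upward over these 9 and 9 libraries. The 3 hours of a replicate are related, as their deviations from the group means correlated (r 0.211 to 0.834), so they are not independent repeats.

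Markers of other cell types differed between the genotypes too. Over all genes 9.89% were called lower and 7.71% higher at 0 h. Of 15 tested markers of the oligodendrocyte lineage 6 were lower and 1 was higher in the libraries labelled cKO at 0 h (median log2 -1.53). The summed level of all 17 was 785 to 913 CPM in WT and 348 to 745 in those labelled cKO. Pdgfra, the receptor that marks oligodendrocyte precursors, was at 169 to 243 CPM in WT and 16.2 to 41.0 in those labelled cKO, and Gpr17 at 6.70 to 11.5 and 0 to 0.159. Olig1 went the other way, at 101 to 120 and 131 to 350. Mag was at 0 in every library labelled cKO and at or below 0.0842 CPM in WT. For fibroblast and meningeal markers 9 of 13 tested were higher and 0 lower (median log2 4.12). Their summed level was 8.23 to 15.8 CPM in WT and 35.2 to 305 in those labelled cKO, with none of the 14 at 0 in a whole group. Thbs2 took most of the upper end, at 1.21 to 3.54 CPM in WT and 1.82 to 227 in those labelled cKO, where no other marker of the list exceeded the 28.3 of Lum. Neuronal markers were lower in 4 and higher in 1 of 14 (summed level 236 to 292 against 96.8 to 117 CPM, with Neurod2 at 0 in both genotypes). Astrocyte markers were lower in 5 and higher in 0 of 12 (median log2 -0.77), and some were at high levels in WT. Slc1a2 was at 482 to 594 CPM in WT and 109 to 233 in those labelled cKO, and Aldoc at 680 to 1183 and 335 to 575. Sox9 (1523 to 2003 and 1037 to 2924) and Aldh1l1 (25.4 to 46.3 and 22.3 to 130) overlapped. Neural stem cell markers were lower in 4 and higher in 1 of 14 (median log2 -0.10). Of 4 tested ependymal and choroid plexus markers 0 were called (median log2 1.05). Of 7 tested endothelial and mural markers Mcam was lower (7.29 to 9.91 CPM in WT, 2.47 to 5.70 in those labelled cKO). The summed level of the 10 on the list was 15.4 to 20.5 and 6.54 to 14.0, with Cdh5 and Cldn5 at 0 in both groups. Of 10 microglial markers P2ry12 alone could be tested, at 1.26 to 1.55 CPM in WT and 1.67 to 3.902 in those labelled cKO (adjusted p = 0.314). The summed microglial level was 1.26 to 1.69 and 1.99 to 3.904, with Csf1r, Tmem119, C1qa, C1qb and Itgam at 0 in both. The part of these marker differences in the Pcdh15, Pcdh11x and Pcdh18 results was not tested.

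Lists of relatives and partners of the protocadherins are read against the 9.89% of all genes called lower and the 7.71% called higher at 0 h. Of 14 tested cadherin superfamily relatives (Fat, Dachsous, Celsr and calsyntenin genes and others) 2 were lower and 0 higher at 0 h, the atypical cadherin Fat3 (log2 -1.58, SE 0.40) and Celsr3, an axon guidance receptor (log2 -1.87, SE 0.57). At 4 h 4 were higher and 1 lower (11% and 9.11% of all genes), with Dchs1 and Celsr2 among the higher (log2 1.46 and 0.63). Of 15 classical cadherins and catenins Cdh11 alone was lower (log2 -1.30) and Cdh22 alone higher (log2 1.18), a share near that of all genes. Of 25 intracellular and membrane partners 5 were lower and 1 higher. Dab1, the kinase Mapk14 (log2 -0.78), the WAVE complex subunit Cyfip2 (log2 -0.77) and Abi1 (log2 -0.64) were among the lower, and Wasf2 was higher (log2 1.85). Among 7 tested genes of the tip-link complex of Pcdh15 only Whrn was called, higher (log2 1.51), and Cdh23, the partner in the link, had a log2 difference of -0.11 (adjusted p = 0.942). Of 24 chromatin regulators of the clustered genes 6 were lower, among them the cohesin loader Nipbl (log2 -0.999) and the cohesin subunits Stag1 (log2 -1.05) and Stag2 (log2 -1.04).

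Over 4 h of actinomycin D, normalized levels give the share of the remaining RNA, so a gene can gain share by losing less RNA than others. In WT 4 members were higher and 1 was lower at 4 h than at 0 h (15.6% and 24.2% of all genes), and in the libraries labelled cKO 2 were higher and 1 lower (12.1% and 18%). Groups did not overlap for 8 higher and 2 lower in WT (29.2% and 33.7% of all genes) and for 4 and 2 in those labelled cKO (15% and 19.4%). The median member moved by 0.35 log2 in WT and 0.34 in those labelled cKO, against 0.00 and 0.08 over all genes. The second value rests on single libraries: without replicate 1 labelled cKO at 0 h the members' median was 0.01 (all genes 0.11). Without replicate 1 or 2 labelled cKO at 4 h it was 0.13 each time, without replicate 3 at 0 h 0.53, and without replicate 1 at all hours -0.04 (all genes 0.07). Scaling to ribosomal protein genes shifted the median of all genes in WT by -0.73 and that of the members to -0.39. Scaling to library size alone moved it by -0.33 and the members to 0.01. The members' median stayed 0.34 above that of all genes under both (0.24 with limma on log2(TPM + 1), where it was -0.08), so the changes below are relative to all genes. With the replicate number as a block 5 members were higher and 2 lower in WT, adding Pcdhb19 (log2 0.97, adjusted p = 0.0241) and Pcdh20 (log2 -1.73, adjusted p = 0.0491). Over all genes that fit called 23.8% higher and 29.1% lower.

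Most beta genes had a positive difference over the 4 h. Of 21 tested, 20 were positive in WT (median 0.37, and 0.70 without WT replicate 1 at 0 h) and 18 in the libraries labelled cKO (median 0.44), but only Pcdhb18 in WT and Pcdhb14 in those labelled cKO were called. With ribosomal scaling 4 of the 21 were positive in each genotype (medians -0.35 and -0.34). The median in the libraries labelled cKO was 0.17 and 0.25 without replicate 1 at 0 h and at 4 h, and 0.66 without replicate 3 at 0 h. Pcdhb18 went from 10.8, 7.75 and 8.30 CPM to 17.8, 18.04 and 20.4, without overlap (log2 1.07, adjusted p = 0.0132). It lost its call without WT replicate 2 or 3 at 0 h (adjusted p 0.0557 and 0.0514). Pcdhb14 in the libraries labelled cKO went from 3.48, 4.13 and 4.94 to 11.8, 8.19 and 6.49 (log2 1.08, adjusted p = 0.00772), also without overlap, and lost its call without replicate 1 at 4 h (adjusted p = 0.0621).

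In the gamma cluster the tested members had a median of 1.12 in WT, with 12 of 13 positive, and 0.59, 0.70 and 0.59 without WT replicate 2 or 3 at 0 h or replicate 1 at 4 h, where 16 members could be tested. In the libraries labelled cKO the median was 0.61, and without 1 library it ran from 0.06 (replicate 1 at 0 h) to 1.17 (replicate 3 at 0 h), and with ribosomal scaling it was -0.18. Pcdhgc3, a C-type member that binds Axin1, went from 5.33, 3.20 and 3.85 CPM to 20.5, 10.2 and 4.14 in WT (log2 1.49, adjusted p = 0.0328). In the libraries labelled cKO it went from 1.16, 6.31 and 6.45 to 14.4, 18.4 and 9.55 (log2 1.60, adjusted p = 0.0296), without overlap, and lost its call without replicate 1 at either hour or replicate 2 at 4 h (adjusted p 0.062 to 0.119). The WT groups overlapped, as replicate 3 did not move beyond the 0 h range. The call was lost without WT replicate 1 at 4 h or without replicate 2 or 3 at 0 h (adjusted p 0.0938 to 0.225). Pcdhga7 went from 1.42, 0.67 and 1.54 to 7.66, 2.86 and 1.42 CPM (log2 1.70, adjusted p = 0.0252). It lost its call without replicate 1 at either hour or replicate 2 at 0 h (adjusted p 0.0557 to 0.246). Replicate 1 at 4 h was the highest for both genes.

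Among non-clustered members Pcdh1 fell in WT, from 2.11 ± 0.0223 to 0.234 ± 0.0772 CPM (SD, n = 3; log2 -3.11, SE 0.59, adjusted p = 0.00046). Pcdh18 fell in the libraries labelled cKO, from 10.6 ± 5.75 to 1.99 ± 0.933 (log2 -2.41, SE 0.67, adjusted p = 0.0117). Pcdh1 kept its call without each single library, and Pcdh18 lost it without replicate 2 at 0 h or 4 h (adjusted p 0.0523 and 0.0527). In the other genotype Pcdh1 had a log2 difference of -0.40 (adjusted p = 0.589) and Pcdh18 of -0.41 (adjusted p = 0.679). The genotype difference of the slope was 0.71 log2 per hour for Pcdh1 (SE 0.19, adjusted p = 0.195) and -0.50 for Pcdh18 (SE 0.23, adjusted p = 0.569). The slope was called by edgeR for 0 of the 48 members (0.00713% of all genes), with 2 at an unadjusted p under 0.05 and 0 called by DESeq2. Pcdh17 rose in WT by 0.63 (SE 0.19, adjusted p = 0.0153), from 56.7 to 87.4 CPM, a call lost without WT replicate 3 at 0 h (adjusted p = 0.0677), and its difference turned to -0.11 with ribosomal scaling. Pcdh9, Pcdh15 and Pcdh11x moved by -0.07, 0.05 and 0.27 in WT and by -0.28, -0.14 and 0.38 in the libraries labelled cKO, and were not called (adjusted p 0.537 to 0.918). Without replicate 1 labelled cKO at all hours, a choice made after seeing the data, Pcdh9 and Pcdh15 were lower at 4 h in the remaining libraries labelled cKO (log2 -0.90 and -0.78, adjusted p 0.000858 and 0.00439).

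**Figure D3:**
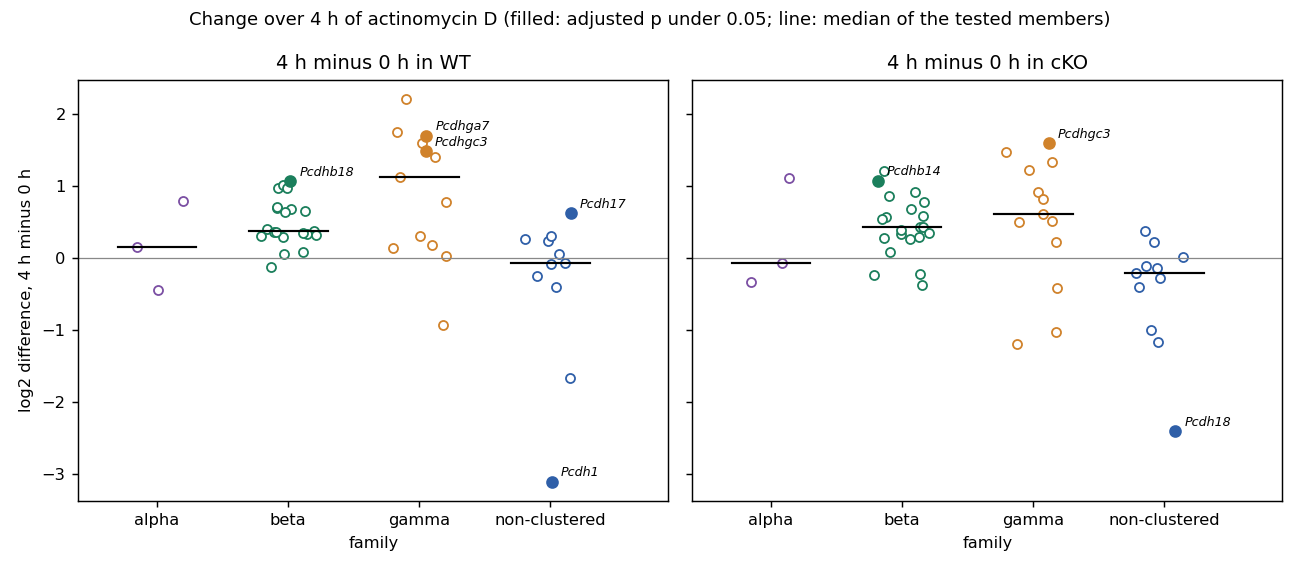
Log2 difference between 4 h and 0 h of actinomycin D for each tested protocadherin, by family, in libraries labelled WT (left) and cKO (right); filled points have an edgeR adjusted p under 0.05 and bars are medians. The gamma median is 1.12 in WT and 0.61 in those labelled cKO, the beta medians are 0.37 and 0.44, and the called members are named.

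Of the 24 chromatin regulators of the clusters, 9 were lower and 1 was higher in WT after 4 h (24.2% and 15.6% of all genes), with Ehmt1 (log2 -1.29), Atf7ip (log2 -2.04) and Ctcf (log2 -1.05), the insulator protein that loops cluster promoters to their enhancers, among those lower. Of the relatives 2 of 14 were higher, Celsr2 (log2 0.88) and Clstn1 (log2 1.18), and of the classical cadherins 1 of 15, Cdh13 (log2 0.83). Of the partners 2 of 25 were higher and 5 lower, with Axin1 lower by a log2 difference of -3.36 and Mapk14 of -1.41. Of the tip-link genes Cib2 was higher (log2 1.07).

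In the m6A pull-down 57 of 63 tested protocadherins had a positive difference from input, and few were called. Of the 63 members 6 were called higher and 0 lower, where 6.06% of all 14167 genes tested were called higher and 14.3% lower, and the median log2 difference was 0.32, against 0.01 over all genes. With the replicate number as a block, which pairs each pull-down with its input, 30 were higher and 0 lower, against 17.2% of all genes called higher. Of the 21 beta genes tested, all had a positive difference, from 0.16 to 0.72 with a median of 0.44, and in 12 the groups did not overlap. Over all 63 members 19 were higher without overlap and 0 lower (16.1% and 21.1% of all genes). Under library-size scaling the median of all genes moved from 0.01 to 0.22 and that of the members to 0.53.

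Pcdhb22 was at 6.16, 6.82 and 6.65 CPM in input and at 10.5, 10.3 and 10.6 in the pull-down (log2 0.67, SE 0.14), and kept its call without each library. Pcdhb7, at 12.4 and 19.8 CPM on average (log2 0.68), Pcdhb3 (log2 0.64), Pcdhb18, at 21.2 and 31.6 (log2 0.58), and Pcdhb19 (log2 0.51) were also called, without overlap. Each lost its call without 3 to 5 of the 6 libraries in turn (adjusted p 0.0569 to 0.119). Pcdhgc3 was at 471, 448 and 495 CPM in input and at 708, 695 and 644 in the pull-down (log2 0.53, SE 0.07, adjusted p = 0.000565), the smallest adjusted p of the members. It too kept its call without each library.

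No non-clustered member was called in the fit without the block. Pcdh11x was at 61.2, 55.5 and 69.2 CPM in input and at 82.0, 79.4 and 70.7 in the pull-down (log2 0.32, SE 0.10, adjusted p = 0.0515). Pcdh15 was at 169, 181 and 174 against 185, 197 and 197 (log2 0.15, SE 0.07, adjusted p = 0.172). Each was higher in the pull-down in all 3 replicates without overlap, and with the block they were called at adjusted p of 0.00183 and 0.0208. Pcdh9, at 481, 579 and 453 against 529, 620 and 585 CPM, was higher in each replicate by log2 0.20 (adjusted p = 0.213, and 0.00132 with the block). Pcdh18 and Pcdh10 were likewise called only with the block, at log2 0.63 and 0.15 (adjusted p 0.0157 and 0.0495). Pcdh17, Pcdh7, Pcdh19, Pcdh1 and Pcdh20 were not called in either fit, with log2 differences of 0.06, 0.02, 0.10, 0.01 and 0.33. Of the pathway lists, 0 of 13 relatives, 3 of 16 classical cadherins and 0 of 6 tip-link genes were higher and none of these lower. Partners had 2 of 25 higher and 4 lower, and chromatin regulators 5 of 24 higher and 1 lower. Beside these lists, 6.06% of all genes were called higher and 14.3% lower.

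Many protocadherins were higher in the YTHDF2 pull-down than in either control. Of 57 tested members 32 were called higher and 0 lower than input, where 30.7% of all 14255 genes tested were higher and 17.5% lower. Over IgG 28 were higher and 0 lower, where 14.3% and 0.33% of all genes were. The median log2 difference was 1.09 over input and 1.25 over IgG, against 0.23 and -0.08 for all genes. Without YTHDF2 replicate 2 the median over input was 0.62 (all genes 0.20) and that over IgG 0.87. All pull-down libraries lay above all controls for 34 members over input and 39 over IgG (35.1% and 20.9% of all genes), and below them for 0 in each (21.1% and 10.8%). The 2 contrasts share the pull-down libraries, and 26 members were called in both, 18 of them beta, 5 gamma and 3 non-clustered. With the replicate block 40 were higher and 1 lower than input, and 42 higher and 1 lower than IgG, the lower member being Pcdhgb6 in each (log2 -1.42 and -0.89). In that fit 38.9% of all genes were higher and 24.7% lower than input, and 22% and 8.9% than IgG. If the sample titles were right in place of the descriptions, the contrast over input would change sign and 0 members would be higher than IgG, with Pcdh15 lower (log2 -1.91, adjusted p = 0.00992). By the titles 17% of all genes would be higher and 20.2% lower than IgG.

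With the sample descriptions, the beta cluster had the highest median over IgG, 1.51, against 0.80 for the non-clustered members, 0.79 for gamma and 0.79 for the 3 tested alpha genes. With the sample titles the order was another one, with medians over IgG of 0.03 for beta, 0.41 for gamma, 0.18 for alpha and -0.06 for the non-clustered members. The beta differences then ran from -0.72 to 0.95, 12 of the 21 were positive, and the values below would not hold. By the descriptions all 21 tested beta genes were above IgG without overlap, by log2 1.13 to 2.49, and 19 were called in each contrast (21 in each with the replicate block). Within replicates 1, 2 and 3 the median log2 ratio of pull-down to IgG over the 22 beta genes was 1.45, 1.69 and 1.29, and 21 were higher in all 3. The largest differences were those of Pcdhb8 (log2 2.49, SE 0.48), Pcdhb11 (log2 2.15, SE 0.31), Pcdhb12 (log2 1.92, SE 0.27) and Pcdhb21 (log2 1.82, SE 0.34), where the titles give 0.95, 0.00, -0.28 and 0.21. Pcdhb12 was at 8.13, 6.69 and 6.41 CPM in IgG, 8.32, 4.41 and 4.604 in input and 29.5, 29.6 and 21.6 in the pull-down. The most abundant beta genes were also called: Pcdhb20 was at 20.9, 37.3 and 23.9 CPM in IgG and 72.6, 137.4 and 75.6 in the pull-down (log2 1.79, SE 0.28, adjusted p = 0.000676). Pcdhb17 was at 24.6, 33.9 and 24.0 and 67.2, 106.6 and 54.1 (log2 1.46, SE 0.26, adjusted p = 0.00211). Replicate 2 was the highest for both, and neither group pair overlapped. Of the 19 calls over IgG, those of Pcdhb3, Pcdhb4, Pcdhb10, Pcdhb13, Pcdhb16, Pcdhb18, Pcdhb19 and Pcdhb22 were lost without 1 to 4 of the libraries in turn (adjusted p 0.0568 to 0.22). Over input those of Pcdhb4, Pcdhb6, Pcdhb8 and Pcdhb10 were lost without 2 to 6 (adjusted p 0.05 to 0.167). Pcdhb2 and Pcdhb6 were not called over IgG (adjusted p 0.0751 and 0.0562), nor Pcdhb2 and Pcdhb18 over input, and all were called with the replicate block (0.000368 and 0.000362 over IgG, 0.041 and 0.000528 over input).

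**Figure D4:**
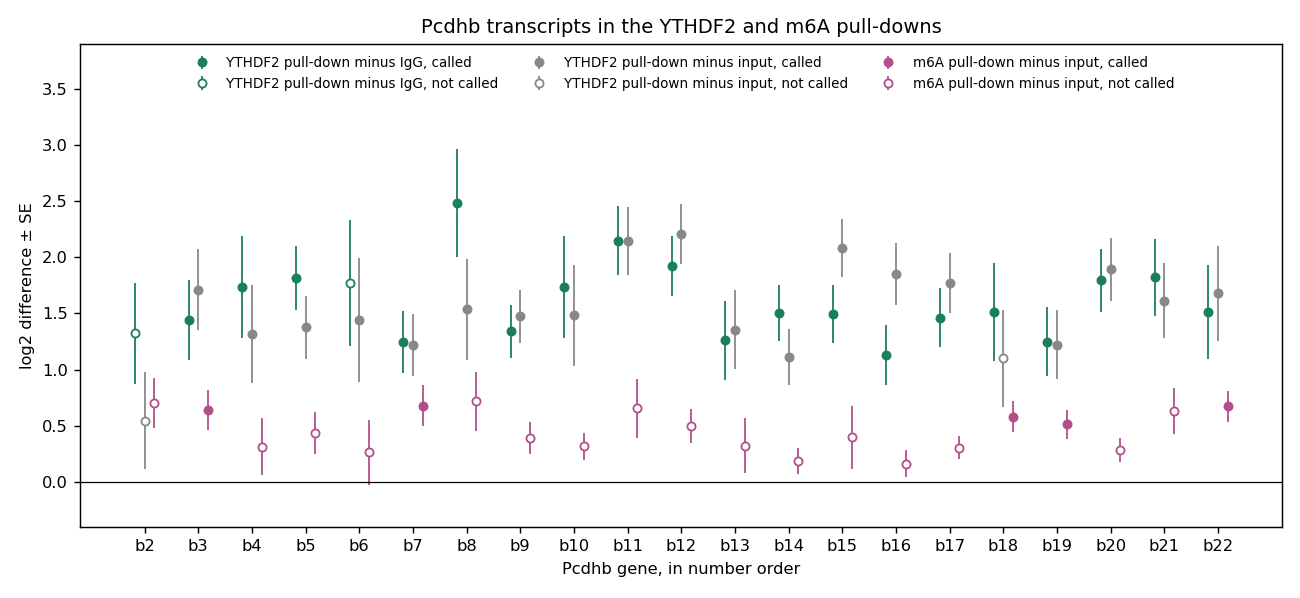
Log2 difference with SE for the 21 tested beta genes, in number order: YTHDF2 pull-down minus IgG (green), YTHDF2 pull-down minus input (grey) and m6A pull-down minus input (pink); filled points have an edgeR adjusted p under 0.05. Groups follow the sample descriptions. All 63 points are above 0; over IgG the differences run from 1.13 to 2.49, and in the m6A pull-down from 0.16 to 0.72.

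In the gamma cluster the differences over IgG ran from -0.92 to 2.06 (median 0.79, and 0.44 without YTHDF2 replicate 2) and 6 of 22 members were called higher. With the replicate block 13 of 22 were higher and 1 lower than IgG, adding Pcdhga2 (log2 1.32), Pcdhga3 (log2 0.66), Pcdhga8 (log2 1.26), Pcdhga9 (log2 1.01), Pcdhga11 (log2 0.42), Pcdhgc3 and Pcdhgc5 (log2 0.71), and 10 were higher and 1 lower than input. Over all genes that fit called 22% higher than IgG and 38.9% higher than input. Pcdhga7 led, at 13.8, 17.4 and 10.9 CPM in IgG, 17.99, 16.7 and 21.0 in input and 46.0, 86.7 and 44.6 in the pull-down (log2 2.06 over IgG, SE 0.27, adjusted p = 0.000235). Pcdhga4 (log2 1.57), Pcdhga6 (log2 1.34), Pcdhgc4, a C-type member needed for neuron survival (log2 1.31), Pcdhgb1 (log2 1.30) and Pcdhga1 (log2 0.82) followed. All of these but Pcdhga1 were called over input too, as was Pcdhga9 (log2 0.86). Pcdhga1 and Pcdhga6 lost their calls over IgG without 5 and 3 libraries in turn (adjusted p 0.055 to 0.147). Pcdhga6, Pcdhga9, Pcdhgb1 and Pcdhgc4 lost theirs over input without 4 or 5 (adjusted p 0.0505 to 0.294). Pcdhgc3, the gamma member with the highest count, was not called without the block. It was at 162, 301 and 110 CPM in IgG and at 246, 793 and 152 in the YTHDF2 pull-down (log2 1.05 over IgG, SE 0.52, adjusted p = 0.226; 0.08 over input, adjusted p = 0.909). The groups overlapped and replicate 2 stood far above the others, and with the replicate block the difference over IgG was 0.88 (adjusted p = 0.00228).

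The non-clustered members divided. Pcdh9 was at 429, 399 and 479 CPM in input, 422, 494 and 496 in IgG and 898, 1502 and 1450 in the YTHDF2 pull-down, with no overlap (log2 1.45 over IgG, SE 0.20, adjusted p = 0.000368; 1.56 over input). Pcdh17, at 17.1, 23.1 and 17.2 in IgG and 35.3, 54.4 and 43.9 in the pull-down (log2 1.21, SE 0.20, adjusted p = 0.00117), was above both controls, as was Pcdh7, at 20.0, 23.7 and 21.0 against 34.3, 46.6 and 31.7 (log2 0.80, SE 0.18, adjusted p = 0.00913). These 3 were called in both contrasts, Pcdh7 losing its call over IgG without IgG replicate 3 (adjusted p = 0.0566) and Pcdh17 its call over input without YTHDF2 replicate 2 (adjusted p = 0.057).

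Pcdh15 was as high in IgG as in the YTHDF2 pull-down. It was at 65.7, 112 and 126 CPM in input, 173, 428 and 542 in IgG and 130, 386 and 508.2 in the pull-down. It was above input (log2 1.75, SE 0.49, adjusted p = 0.0115) but not above IgG (log2 -0.16, SE 0.47, adjusted p = 0.848). In each of the 3 replicates its level was below IgG. The call over input was lost without YTHDF2 replicate 3 (adjusted p = 0.0522). Pcdh11x, the other member with a large genotype difference, was at 13.8, 26.6 and 14.6 CPM in IgG and 14.2, 38.5 and 24.3 in the pull-down (log2 0.48 over IgG, adjusted p = 0.403; 0.37 over input, adjusted p = 0.384). Pcdh10, Pcdh1 and Pcdh18 were called over input (log2 0.62, 1.12 and 1.21), and Pcdh1 and Pcdh18 lost the call without 5 and 3 libraries in turn (adjusted p 0.0575 to 0.232). Over IgG they were not called without the block (log2 0.41, 1.17 and 0.80, adjusted p 0.0885, 0.103 and 0.183), and with the block all 3 were called (adjusted p 0.0151, 0.031 and 0.00526). Pcdh20 was called over IgG with the block only (log2 1.59, adjusted p = 2.14e-05). Pcdh19 had a log2 difference of 0.60 (adjusted p = 0.158) and Pcdh8 of -0.37 (adjusted p = 0.769).

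Other cadherin genes were partly above IgG as well. The lists are read against the 14.3% of all genes called higher than IgG and the 30.7% called higher than input. Of 12 relatives 4 were higher, Fat4 (log2 1.31), Dchs1 (log2 1.11), Celsr1 (log2 1.09) and Fat1 (log2 0.67), and 8 were higher than input. Of 15 classical cadherins and catenins 3 were higher than IgG, with Cdh11 first (log2 1.45, adjusted p = 0.000191), and of 25 partners 5, with Nlgn1, a synaptic adhesion protein, first (log2 1.77, adjusted p = 3.98e-05). Of 24 chromatin regulators 11 were higher than input but 0 higher than IgG, and 0 of 6 tip-link genes were higher than IgG.

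**Figure D5:**
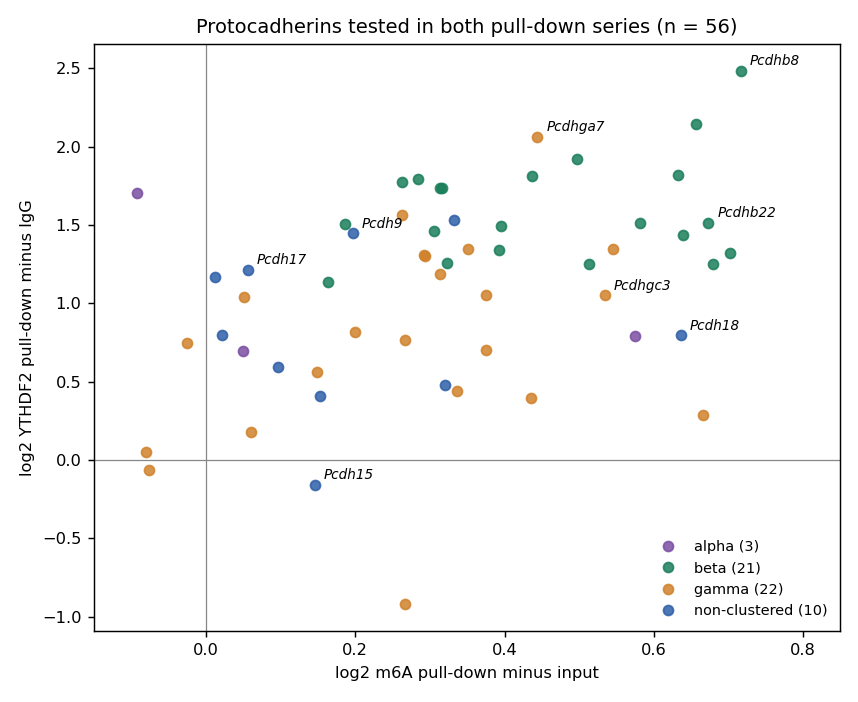
Log2 YTHDF2 pull-down minus IgG against log2 m6A pull-down minus input for the 56 protocadherins tested in both series, coloured by family. Both values are positive for 50 of the 56; Pcdhb8 lies at the upper right and Pcdh15 lies at 0.15 on the m6A axis and -0.16 on the YTHDF2 axis.

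Side by side, 56 members were tested in both pull-down series and 50 of them were positive in both. Of the 6 members called in the m6A pull-down, 5 were also called in YTHDF2 over IgG (83.3% of the 6 and 17.9% of the 28), where 49.1% of all tested members and 90.5% of tested beta genes were called over IgG. They were the beta genes Pcdhb3, Pcdhb7, Pcdhb18, Pcdhb19 and Pcdhb22. Of the 7 members lower in the libraries labelled cKO at every hour, 4 were above IgG in the YTHDF2 pull-down (57.1% of the 7 and 14.3% of the 28), near the 49.1% of all tested members. They were Pcdh9, Pcdh17, Pcdhb9 and Pcdhb10, and 0 of the 7 were called in the m6A pull-down without the block. With the block, where 30 of 63 tested members were higher, Pcdh9, Pcdh10, Pcdh11x and Pcdh15 were called higher and Pcdh17 was not. The 2 members with the largest genotype differences, Pcdh15 and Pcdh11x, were not among those above IgG. The 19 beta genes called over IgG included 2 that were lower in the libraries labelled cKO at every hour.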

How the data were processed

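RNA-seq, m6A pull-down and YTHDF2 pull-down libraries (33 in all, 3 per group) were analysed from the deposited tables of whole-number counts and of TPM per gene. The authors made these with bcl2fastq 2.17.1.14, Trimmomatic 0.32 and STAR 2.5.2a on GRCm38, per the submitters' processing notes. Which tool and annotation gave the counts, with what strand setting and what treatment of reads shared between overlapping genes, is not given in the sources used here. Deposited counts were tested, and TPM, as the authors gave it, served for levels compared between genes and for the limma alternative.

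Each of the 3 series was fitted on its own over all its groups with TMM factors, the default low-count filter of edgeR 4.0.16 and its quasi-likelihood F-test (R 4.3.3), and p-values were adjusted by Benjamini-Hochberg over all genes tested, with a threshold of 0.05. Filtering left 14029 genes in RNA-seq, 14167 in the m6A series and 14255 in the YTHDF2 series. SE was the size of the log2 difference divided by the root of F. The script was tested on simulated counts. Alternatives used DESeq2 1.42.0 and limma 3.58.1 (pseudocount 1). Same-numbered samples deviated together in the m6A series (r 0.133 to 0.551, 3 pairs) and the YTHDF2 series (0.436 to 0.738, 9 pairs). They also did so across hours within WT (0.211 to 0.443) and within those labelled cKO (0.334 to 0.834). Fits and calls held no replicate block unless the text names it. In the sets above the replicate number was therefore taken as pairing only in an alternative fit with that block. The sample labels share this number within a genotype but do not state that it pairs the libraries.

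Groups came from the labels and, in the YTHDF2 series, from the sample descriptions. Every non-clustered member passing the RNA-seq filter is described, and every called clustered member, or, above 8 in a cluster and direction, the 4 with the largest change and the 2 with the highest mean CPM, besides the most abundant of each cluster and up to 4 called genes per pathway list. Other members were named where a call depended on a setting, after their values were seen. The members and lists were chosen with earlier results of these data known. Promoters came from a RefSeq table (GRCm38.p6). Sequences of genes on chromosome 18 were not used here, and 1 gene of the chromatin list is not reported by name.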

Additional observations from a re-analysis of the deposited data

How the results depend on the processing

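Calls of protocadherins were recomputed with limma on log2(TPM + 1), a replicate block, ribosomal protein scaling, RLE factors, DESeq2, no filter on low counts, scaling by library size alone, without each library and, chosen after seeing the data, without replicate 1 labelled cKO at all hours. At 0 h limma called 11 lower (17.3% of all genes), and 2 were higher without replicate 1 labelled cKO (13.8% of all genes). At 2 h 1 member was higher with DESeq2, library size alone or no filter (11%, 13.7% and 5.23% of all genes). Without replicate 1 labelled cKO 3 were higher at 2 h (18.3% of all genes). At 4 h limma called 0 higher and library size alone 6 lower (8.6% and 6.8% of all genes). Over 4 h in WT library size alone, limma and ribosomal scaling each called 0 higher (4.98%, 2.44% and 0.321% of all genes). Limma and ribosomal scaling each called 5 lower (36.9% and 42.5% of all genes), and Pcdh17 turned to -0.11 with ribosomal scaling. In the libraries labelled cKO 1 was higher with library size alone (3.67% of all genes). With limma, ribosomal scaling or without replicate 1, 0 were higher (1.98%, 0.228% and 11.2% of all genes). With the same settings 2, 7 and 3 were lower, against 27.4%, 38.9% and 16.4% of all genes. In the m6A pull-down 15 were higher with DESeq2, 10 with RLE factors, 30 with library size alone, 10 with no filter and 41 with limma. The share of all genes called higher moved as well, to 10.6%, 7.07%, 25.6%, 4.58% and 51.1% in the same order. YTHDF2 over input had 1 lower with DESeq2 or no filter (21.6% and 12.4% of all genes). The cause of these differences was not tested.

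The replicate block gave 30 higher in the m6A pull-down (17.2% of all genes) and 2 lower over 4 h in WT (29.1% of all genes). It gave 1 lower in YTHDF2 over input and over IgG (24.7% and 8.9% of all genes). It removed no call of a member. Across genotypes the replicate numbers did not pair the samples (r -0.243 to 0.0789), and with that block 1 member was higher and 9 lower at 0 h, 0 and 10 at 2 h, and 1 and 12 at 4 h. Shares of all genes were then 10.1% higher and 13.8% lower at 0 h, 10.7% and 12% at 2 h, and 13.2% and 12.3% at 4 h.

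Leaving out 1 library in turn gave 0 to 2 higher and 3 to 6 lower at 0 h, 0 to 2 and 4 to 7 at 2 h, and 0 to 1 and 6 to 13 at 4 h. The shares of all genes moved too, from 2.13% to 9.54% higher and 3.95% to 10.3% lower at 0 h. At 2 h they ran from 2.59% to 12.9% and 3.38% to 13.1%, and at 4 h from 4.29% to 13.4% and 4.23% to 13.7%. Over 4 h leaving out 1 library gave 1 to 4 higher and 1 to 1 lower in WT and 0 to 4 and 0 to 2 in those labelled cKO. It gave 3 to 10 higher in the m6A pull-down, 18 to 29 in YTHDF2 over IgG, and 23 to 30 higher and 0 to 1 lower over input. All-gene shares over 4 h in WT were 10.4% to 15.1% higher and 18.7% to 20.9% lower. In those labelled cKO they were 6.17% to 13.2% and 14.3% to 18.2%. Higher shares were 2.35% to 5.89% in the m6A pull-down and 10.5% to 15.1% over IgG. Over input 24.6% to 30.9% of all genes were higher and 13.1% to 16.8% lower. Where 1 group was left with 2 libraries the spread was pooled over all groups of the series.

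With the sample titles in place of the descriptions, 0 members were higher and 32 lower in YTHDF2 over input, and 0 higher and 1 lower over IgG. Among all genes 17.5% were higher and 30.7% lower over input, and 17% and 20.2% over IgG. The log2 differences over input were then Pcdh1 -1.12, Pcdh10 -0.62, Pcdh15 -1.75, Pcdh17 -0.72, Pcdh18 -1.21, Pcdh7 -0.86, Pcdh9 -1.56, Pcdhb10 -1.48, Pcdhb11 -2.15, Pcdhb12 -2.21, Pcdhb13 -1.36, Pcdhb14 -1.11, Pcdhb15 -2.08, Pcdhb16 -1.85, Pcdhb17 -1.77, Pcdhb19 -1.22, Pcdhb20 -1.89, Pcdhb21 -1.61, Pcdhb22 -1.68, Pcdhb3 -1.71, Pcdhb4 -1.32, Pcdhb5 -1.38, Pcdhb6 -1.44, Pcdhb7 -1.22, Pcdhb8 -1.54, Pcdhb9 -1.47, Pcdhga4 -1.72, Pcdhga6 -0.98, Pcdhga7 -1.67, Pcdhga9 -0.86, Pcdhgb1 -0.85 and Pcdhgc4 -0.87. Those over IgG that changed sign were Pcdh7 -0.059, Pcdh9 -0.11, Pcdhb12 -0.28, Pcdhb13 -0.10, Pcdhb15 -0.58, Pcdhb16 -0.72, Pcdhb17 -0.30, Pcdhb20 -0.10, Pcdhb22 -0.16, Pcdhb3 -0.27, Pcdhb9 -0.13 and Pcdhga4 -0.16. Low counts limited the alpha genes, with 10 of 15 under 10 counts in every RNA-seq library. In the m6A and YTHDF2 series 4 and 9 of the 15 were, and the cause was not tested.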
